A study of Homo sapiens with 12 samples.

Results

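The regions described here were merged ATAC-seq peak regions without a peak in any GFP library that were listed in all SMARCB1 libraries of one treatment and in none of the other. They were chosen by the presence or absence of a peak in each of 12 peak lists, so the contrast between treatments is a description and carries no test. Joining the peaks of all lists wherever they overlapped by at least 1 bp gave 187088 regions, of which 624 (0.334%) followed the rule. In 317 of them a peak was listed in 3 of 3 DMSO and 0 of 3 dBRD9-A libraries, and in 307 a peak was listed in 0 of 3 DMSO and 3 of 3 dBRD9-A libraries. They are called DMSO-only and dBRD9-A-only regions, by the pattern of the lists.

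ATAC-seq uses a transposase to place sequencing adapters into accessible DNA. All libraries came from the established cell line G401, derived from a rhabdoid tumour and labelled SMARCB1(-/-). Doxycycline was given to every group for 24 h and switched on GFP, the control, or SMARCB1. The vehicle DMSO or dBRD9-A, a degrader of BRD9, was present as well, which makes 4 groups of 3 libraries: GFP with DMSO, GFP with dBRD9-A, SMARCB1 with DMSO and SMARCB1 with dBRD9-A. The concentrations, the promoter that drives the induced genes and the number of clones are not given in the sources used here, and nothing says that the 3 libraries of a group came from separate cultures, so the spread between them may be technical.

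SWI/SNF complexes move and eject nucleosomes and so open enhancers and promoters to transcription factors. SMARCB1 is a core subunit of the canonical and the polybromo-associated forms and is absent from the non-canonical form, which holds BRD9. Rhabdoid tumours lose SMARCB1, keep the non-canonical form, and are known for their dependence on BRD9. The comparison asks which of the regions listed with SMARCB1 and not with GFP were listed only with or only without BRD9 degradation.

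Depth was read from the lists. The fold and the p-value of a peak give its summit pileup, the count over its highest point, and its local background. The unit of that count is called fragments here, although the peak-calling settings that decide it are not given. The lowest background of a list rises with the fragments sequenced. It was 0.0769, 0.0720 and 0.0926 fragments in SMARCB1 DMSO replicates 1, 2 and 3, and 0.0950, 0.0487 and 0.111 in SMARCB1 dBRD9-A replicates 1, 2 and 3. The dBRD9-A group held both the shallowest and the deepest SMARCB1 library, and the DMSO libraries lay between them. The mean was 0.0805 ± 0.0108 with DMSO and 0.0849 ± 0.0324 with dBRD9-A (SD, n = 3 each; two-sided exact permutation p 0.9, adjusted p 1 over 3 library measures by Benjamini-Hochberg). The geometric mean pileup over regions present in all 12 lists was 17.4 ± 0.883 with DMSO and 17.8 ± 4.25 with dBRD9-A (SD, n = 3 each; exact permutation p 1 on the log2 scale, adjusted p 1). The smallest p that 3 against 3 libraries can give is 0.1. Lists held 76764, 90143 and 85925 peaks in SMARCB1 DMSO replicates 1, 2 and 3, and 88244, 71169 and 96572 with dBRD9-A. The measures did not order the DMSO libraries alike. Among them, replicate 2 had the lowest background but the longest list. Its geometric mean pileup at regions in all 12 lists was also the highest, 18 against 16.4 and 17.7. At its lowest background, every list held peaks with a summit pileup of only 2 fragments, so presence in a list reached down to very few fragments and absence from a list does not show that a region was closed. In GFP libraries the lowest background was 0.0678, 0.0414 and 0.0446 with DMSO and 0.0395, 0.0383 and 0.0784 with dBRD9-A. Most GFP lists thus lay below every SMARCB1 list by this measure. Pileup at regions in all 12 lists did not order them so. It was 22.4, 14.2 and 13.8 with GFP and DMSO, and 12.8, 14 and 23.2 with GFP and dBRD9-A. In SMARCB1 libraries it ran from 12.9 to 20.5. The 2 measures thus leave the relative depth of GFP lists unsettled, and absence of a GFP peak does not show that a region appeared with SMARCB1.

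Very few of the regions that SMARCB1 libraries listed without GFP libraries divided by treatment. Of the 10659 regions with no GFP peak and a peak in exactly 3 of the 6 SMARCB1 libraries, the only ones that can meet the rule, 2.97% were DMSO-only and 2.88% were dBRD9-A-only. The other 10035 mixed the treatments: 4877 had a peak in 2 DMSO libraries and 1 dBRD9-A library, and 5158 in 1 DMSO library and 2 dBRD9-A libraries. The 2 directions thus held nearly the same number of regions. By comparison, 13634 regions without a GFP peak had a peak in 6 of 6 SMARCB1 libraries.

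**Figure D1:**
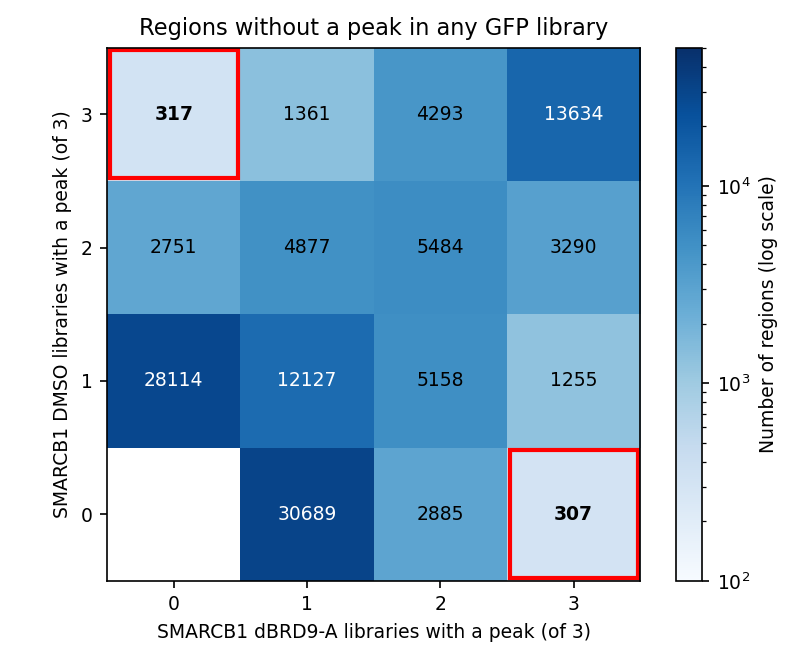
Numbers of regions with no peak in any GFP library, by how many SMARCB1 DMSO libraries (vertical axis) and SMARCB1 dBRD9-A libraries (horizontal axis) had a peak; colour is the number of regions on a log scale. The outlined corners hold the 317 DMSO-only and 307 dBRD9-A-only regions, the smallest numbers in the grid, while 13634 regions had a peak in all 6 libraries.

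The same pattern was counted where the rule did not look. Among 3816 regions with a peak in at least 1 GFP library and in 3 of the 6 SMARCB1 libraries, 129 (3.38%) were listed with DMSO alone and 191 (5.01%) with dBRD9-A alone. Among 795 regions with no SMARCB1 peak and a peak in 3 of the 6 GFP libraries, 56 (7.04%) were listed with DMSO alone and 36 (4.53%) with dBRD9-A alone. The shares in SMARCB1-only regions were thus the lowest of the 3 sets in both directions. The sets differ in strength, in depth and in the libraries they rest on, and the difference between them was not tested.

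Both directions consisted of weak peaks. In DMSO-only regions the median summit pileup was 3, 4 and 4 fragments in SMARCB1 DMSO replicates 1, 2 and 3, and no peak exceeded 16 fragments. The dBRD9-A-only regions had medians of 4, 3 and 4 fragments in SMARCB1 dBRD9-A replicates 1, 2 and 3, again with none above 16. Between 32.2% and 56.7% of their peaks, depending on the library, rested on 3 fragments or fewer. For regions found in 6 of 6 SMARCB1 libraries the medians were 9, 9 and 10 with DMSO and 10, 6 and 11 with dBRD9-A, in the same order of replicates.

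The mean pileup over the 3 libraries with a peak had a median of 3.67 fragments in DMSO-only and 4 in dBRD9-A-only regions. It was 4.33 in the 3-of-6 regions that mixed the treatments, 5.25 in regions of 4 or 5 SMARCB1 libraries, 9.33 in those of 6 of 6, and 18.2 in the 18114 regions present in all 12 lists. The members had the lowest medians, though mixed regions rest on the same number of libraries. From the mixed regions upward, more libraries went with more fragments. By library, the median pileup in mixed regions was 4, 4 and 5 with DMSO and 4, 3 and 5 with dBRD9-A, in the order of replicates. These equalled the members' medians in DMSO replicate 2 and dBRD9-A replicates 1 and 2, and were higher in the other libraries. The weakest of the 3 peaks rested on 2 fragments in 109 DMSO-only regions (34.4%) and 89 dBRD9-A-only regions (29.0%), against 26.7% of mixed regions and 7.54% of 6-of-6 regions. All 3 peaks had 5 or more fragments in 40 DMSO-only regions (12.6%) and 45 dBRD9-A-only regions (14.7%), against 20.5% of mixed regions. A −log10 q of 5 or more in all 3 lists was reached by 7 DMSO-only and 17 dBRD9-A-only regions.

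**Figure D2:**
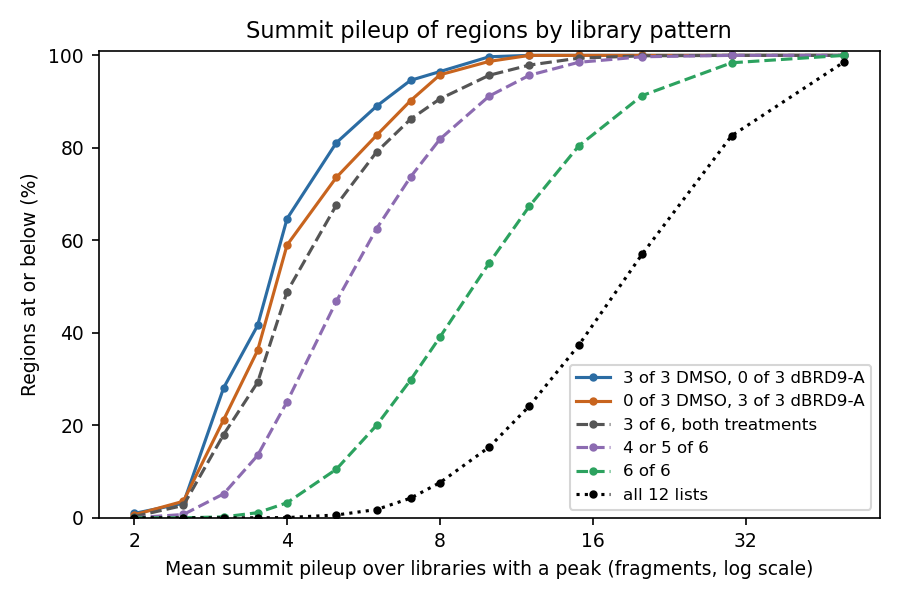
Cumulative share of regions (vertical axis, %) by mean summit pileup over the libraries with a peak (horizontal axis, fragments, log scale), for regions grouped by the libraries that listed them. The curves of DMSO-only and dBRD9-A-only regions lie farthest left, with medians of 3.67 and 4 fragments, close to the mixed 3-of-6 regions at 4.33 and left of the 6-of-6 regions at 9.33.

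The rule was met less often the stronger a region was. The authors' fold value of each peak was ranked within its list, and the mean percentile over the 3 libraries with a peak was taken for each 3-of-6 region. Of the 2517 regions below the 20th percentile, 199 (7.91%) divided by treatment. The share was 5.95% of 5533 regions between percentiles 20 and 40, 3.98% of 2362 between 40 and 60, and 0.810% of 247 at 60 and above, where 2 dBRD9-A-only and 0 DMSO-only regions remained. Mixed regions reached a percentile of 98.1, whereas the highest DMSO-only region was at 57.0 and the highest dBRD9-A-only region at 69.1. Mixed regions were far more numerous, which by itself favours a higher maximum. The medians were closer, at 29.5 in mixed, 24.2 in DMSO-only and 26.9 in dBRD9-A-only regions. These percentiles come from the same peaks as the rule, and their mean covers different libraries in members and mixed regions. In dBRD9-A replicate 2 the median percentile was 22.9 in both members and mixed regions. In the other SMARCB1 libraries it was lower in members, for example 23.7 against 32.4 in DMSO replicate 3.

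**Figure D3:**
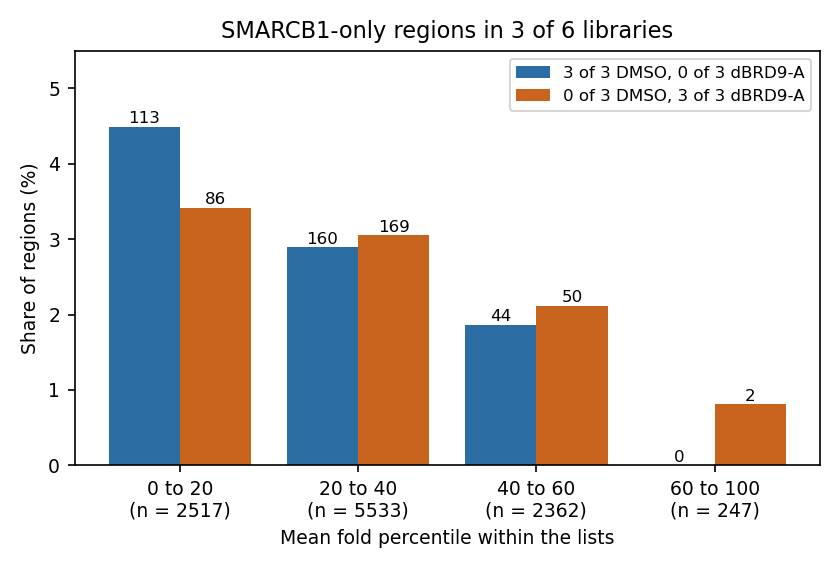
Share of SMARCB1-only regions in 3 of 6 libraries that followed the rule (vertical axis, %) in 4 ranges of mean fold percentile (horizontal axis, with the number of regions); numbers above the bars count regions. Both directions fall from the weakest range, with 113 and 86 regions, to the strongest, with 0 and 2.

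The depth of the libraries that lacked a peak is given beside these pileups. The mean pileup of each member per unit of background was multiplied by the background of each library without a peak, which gives a pileup scaled to that library by its background alone. The pileup at regions in all 12 lists per unit of background ranged from 181 in dBRD9-A replicate 3 to 265 in dBRD9-A replicate 2, so background and pileup did not scale alike. For DMSO-only regions the median was 4.43, 2.27 and 5.18 fragments in SMARCB1 dBRD9-A replicates 1, 2 and 3. For dBRD9-A-only regions it was 3.85, 3.61 and 4.64 in SMARCB1 DMSO replicates 1, 2 and 3. In all 3 libraries without a peak, the value reached 5 fragments for 11 DMSO-only regions (3.47%) and 74 dBRD9-A-only regions (24.1%). In SMARCB1 dBRD9-A replicates 1 and 3 alone, 111 and 175 DMSO-only regions reached it, and in replicate 2, the shallowest of the 6 libraries, 11 did. Selection on a peak in the libraries they start from makes these values lean high. Scaling by background alone can act the other way in dBRD9-A replicate 2. Its pileup at shared regions per unit of background, 265, was above the 213, 251 and 191 of DMSO replicates 1, 2 and 3. The count of 11 rests on that library. The part of depth in the presence or absence of each member was not tested.

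Regions just outside the rule were unevenly spread over the libraries. There were 1361 regions with a peak in 3 of 3 DMSO libraries and 1 dBRD9-A library, and that 1 library was replicate 1 in 519, replicate 2 in 214 and replicate 3 in 628. Another 1255 had a peak in 3 of 3 dBRD9-A libraries and 1 DMSO library, which was replicate 1 in 231, replicate 2 in 548 and replicate 3 in 476. In the 2885 regions with a peak in 2 of 3 dBRD9-A libraries and none with DMSO, the missing library was replicate 2 in 1569 (54.4%). In the 2751 regions with 2 of 3 DMSO libraries and none with dBRD9-A, replicate 1 was missing in 1027, replicate 2 in 577 and replicate 3 in 1147. Median mean pileups were 4.75 fragments for both kinds with 3 and 1 libraries and 3.5 for both kinds with 2 and 0, on either side of the members' 3.67 and 4.

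Each SMARCB1 library was also left out in turn, which relaxes the rule, since its group then needs a peak in only 2 libraries or an absence from only 2. DMSO-only regions then numbered 1348, 890 and 1469 without SMARCB1 DMSO replicates 1, 2 and 3, and 837, 525 and 944 without SMARCB1 dBRD9-A replicates 1, 2 and 3. The dBRD9-A-only regions numbered 535, 852 and 781 without DMSO replicates 1, 2 and 3, and 923, 1877 and 1018 without dBRD9-A replicates 1, 2 and 3. Larger numbers follow from the relaxed rule, and so does the lead of the direction whose own library was left out, because regions with 2 and 0 libraries outnumber those with 3 and 1. Within a treatment the numbers differed by the library left out, most of all for dBRD9-A replicate 2.

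**Figure D4:**
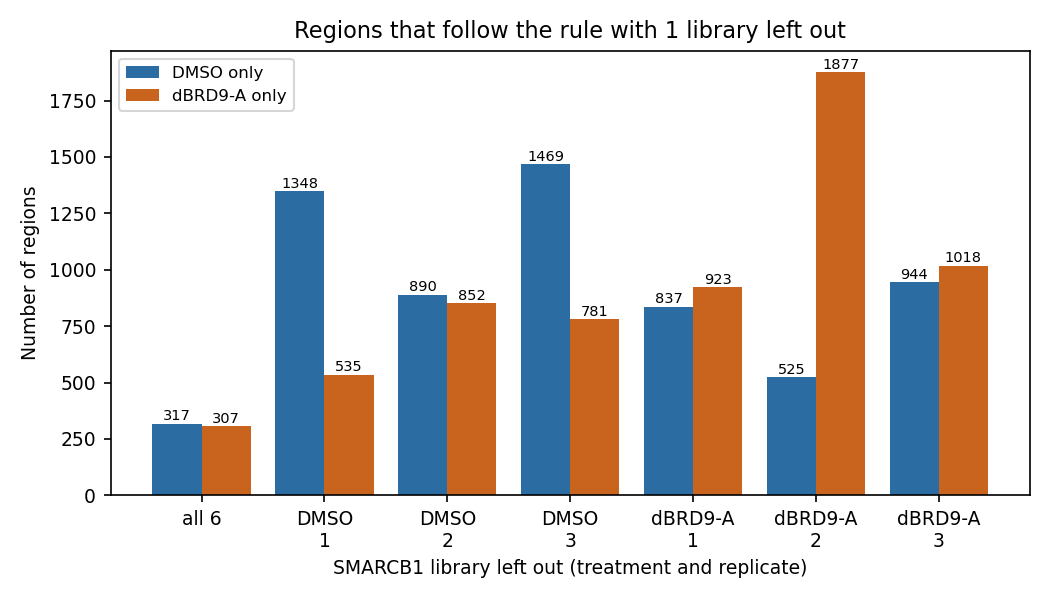
Number of regions (vertical axis) that follow the rule with all 6 SMARCB1 libraries and with each left out (horizontal axis), for both directions. Numbers rise because the rule is relaxed, and the bars differ among libraries of a treatment, with the highest, 1877, without dBRD9-A replicate 2.

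The strongest DMSO-only regions had between 5 and 13 fragments at their summits. Coordinates are 1-based in hg19, the build named in the submitters' processing notes; no gene annotation or genome sequence of that build was used, so regions are named by position. The region of highest mean percentile, chr11:65887270-65887390, was 121 bp wide and had summit pileups of 13, 8 and 10 fragments in SMARCB1 DMSO replicates 1, 2 and 3, with folds of 8.33, 5.86 and 6.71. It did not stand alone, since each of the dBRD9-A libraries had a peak between 239 and 295 bp away, with 10, 5 and 11 fragments in replicates 1, 2 and 3. The next, chr2:64826763-64826900, had 7, 9 and 5 fragments in replicates 1, 2 and 3, and the nearest peak of any dBRD9-A library was 6814 bp away.

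The third, chr2:206948551-206948671, had 11, 13 and 5 fragments and lay 1842 bp from a region present in all 12 lists, and the nearest peaks of dBRD9-A replicates 1, 2 and 3 were 555, 1911 and 545 bp away. In chr22:31987148-31987390 the pileups were 6, 6 and 7, nearly equal over the 3 libraries, and the lowest −log10 q was 7.08, the highest such minimum among DMSO-only regions. The regions chr1:214298299-214298466 and chr13:100517788-100517925 each had 7 fragments in every DMSO library. These 4 showed no DMSO library with fewer than 5 fragments. The remaining pair, chr19:43492658-43492766 with 6, 7 and 6 fragments and chr2:74433344-74433517 with 6, 8 and 8, were alike in this.

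The strongest dBRD9-A-only regions had between 5 and 14 fragments. In chr22:31975919-31976109, the member of highest percentile in either direction, the summit pileups were 10, 9 and 9 in SMARCB1 dBRD9-A replicates 1, 2 and 3, with folds of 8.87, 8.76 and 7.93 and a lowest −log10 q of 9.57. Scaled by background to DMSO replicates 1, 2 and 3, its mean pileup came to 9.52, 8.91 and 11.5 fragments, and the nearest peak in each of these lists was 4093 bp away. It lay 11038 bp from the DMSO-only region chr22:31987148-31987390, so strong members of opposite direction were neighbours. The shallow replicate 2 held as many fragments here as replicate 3, the deepest library by its lowest background. In the other 7 regions replicate 2 held fewer than replicate 3.

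The second region, chr1:118843582-118843733, had 10, 5 and 11 fragments, and chr9:131285913-131286114 had 6, 7 and 11. In chr11:73737965-73738068 the 3 summits lay within 2 bp of each other, with 7, 6 and 7 fragments. The region chr20:49277765-49278006 had 6, 5 and 12 fragments and a summit spread of 4 bp. Replicate 3 alone had the highest pileup in 5 of the 8 regions. Pileups were 12, 9 and 12 in chr12:49763688-49763807, which was 2410 bp from a region in all 12 lists, and the nearest DMSO peaks, 2415 to 2426 bp away, had between 31 and 33 fragments. The last of the 8, chr5:137990233-137990499 and chr16:84764164-84764307, had 8, 5 and 14 and 6, 5 and 13 fragments.

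**Figure D5:**
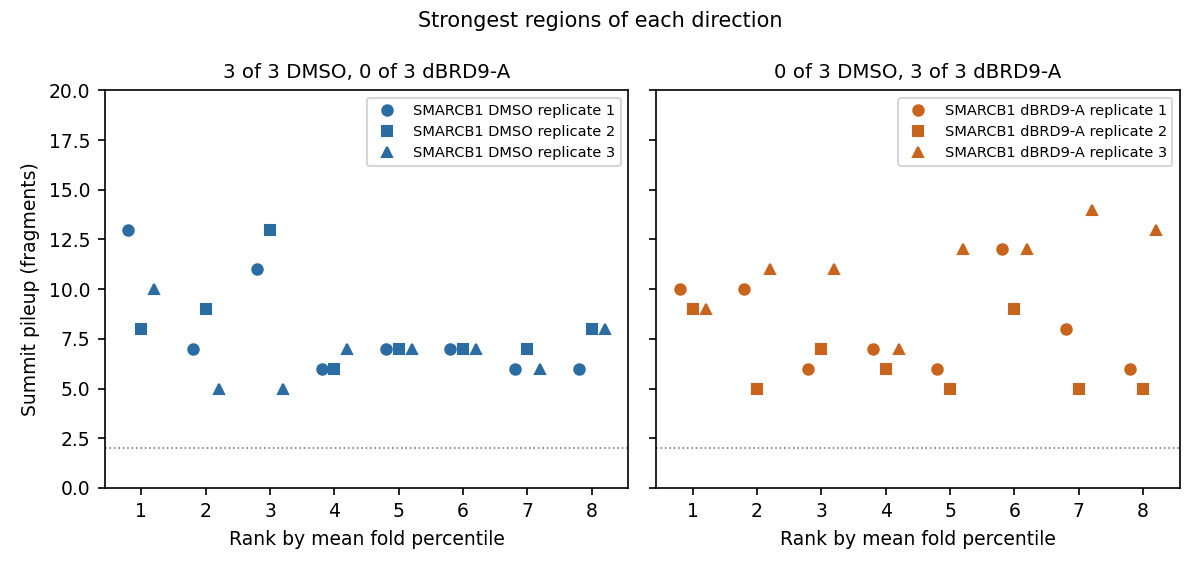
Summit pileup (vertical axis, fragments) in each of the 3 libraries with a peak for the 8 regions of highest mean fold percentile in each direction (horizontal axis, rank); symbols mark replicates and the dotted line the pileup of 2 that lists could hold at their lowest background. All points lie between 5 and 14 fragments, and the other treatment had no peak at any of these regions.

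At the other end, chr15:50608384-50608508 and chr2:224600572-224600811 were DMSO-only with 2 fragments in each of the 3 libraries. In the second the 3 peaks shared no base and were joined through one another. Among dBRD9-A-only regions the lowest were chr12:112749203-112749300 with 2, 3 and 2 fragments and chr11:105918417-105918541 with 2 in each library. All 3 peaks shared at least 1 base in 294 DMSO-only regions (92.7%) and 292 dBRD9-A-only regions (95.1%), close to the 93.0% of mixed regions.

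Some regions outside the rule by a single library were far stronger than any member. In chr13:100784478-100784624 the pileups were 9, 10 and 31 with DMSO, and a peak of 50 fragments was listed in dBRD9-A replicate 3 and none in replicates 1 and 2. The region chr1:145449078-145449201 had 28, 24 and 24 fragments with dBRD9-A and 25 in DMSO replicate 2, with no peak in DMSO replicates 1 and 3. In both, libraries of the same treatment differed in whether a peak of this size was listed. Beside these, chr1:11840926-11841090 had 19, 15 and 15 with DMSO and 15 in dBRD9-A replicate 1, and chr10:30971401-30971567 had 13, 7 and 19 with dBRD9-A and 12 in DMSO replicate 3.

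The strongest regions with a peak in 2 of 3 libraries of a treatment and none of the other had higher mean percentiles, 70.4 to 73.5, than any member. They are the top of 2751 regions with DMSO and 2885 with dBRD9-A, with means over 2 libraries. As sets, these regions had lower median percentiles than members. The medians were 21.7 against 24.2 with DMSO, and 22.8 against 26.9 with dBRD9-A. With DMSO, chrX:22136411-22136514 had 12 and 9 fragments in replicates 2 and 3, and chr7:148842958-148843060 had 12 and 17 in replicates 1 and 2. With dBRD9-A, chr10:75173435-75173571 had 11 and 15 fragments and chr10:6190978-6191115 had 9 and 18, in both cases in replicates 1 and 3. The library without a peak was replicate 2 in both dBRD9-A cases.

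Width and place were not part of the rule, though both come from the same peaks. The median width was 163 bp in DMSO-only and 153 bp in dBRD9-A-only regions, against 168 bp in mixed, 208 bp in 4-or-5-of-6 and 270 bp in 6-of-6 regions; a merged region widens with the number of peaks in it. The distance from the highest to the lowest summit of a region had medians of 46.0, 41.0 and 44.0 bp in DMSO-only, dBRD9-A-only and mixed regions. The nearest region present in all 12 lists was a median of 65904 bp away from DMSO-only regions, 43422 bp from dBRD9-A-only and 44836 bp from mixed regions. Of DMSO-only regions 12% lay within 10 kb of such a region, against 15.6% of dBRD9-A-only, 16.4% of mixed and 15.1% of 6-of-6 regions. Members were thus mostly more than 10 kb from regions present in every list, as were the SMARCB1-only regions of 3 or more libraries set beside them. No test was made of these differences, since neighbouring regions are not replicates.

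Peaks of the other treatment lay near some members without touching them. At least 1 dBRD9-A library had a peak within 1 kb of 88 DMSO-only regions (27.8%), and at least 1 DMSO library within 1 kb of 83 dBRD9-A-only regions (27.0%). Within 100 bp the numbers were 13 (4.10%) and 12 (3.91%). The median distance to the nearest peak of the other treatment was 3400 bp for DMSO-only and 3666 bp for dBRD9-A-only regions. Within a direction no 2 members started within 20 kb of each other, so the regions formed no clusters at that distance.

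Members of opposite direction came closer, with 8 pairs within 20 kb, of which 2 shared a DMSO-only region. In the closest, chr9:137516692-137516929 was DMSO-only with 2, 3 and 10 fragments in replicates 1, 2 and 3. Its partner chr9:137517621-137517850, 691 bp away, was dBRD9-A-only with 3, 3 and 4 fragments. The next pair, 1550 bp apart, was chr4:186739657-186739866 with 2, 3 and 6 fragments with DMSO and chr4:186741417-186741559 with 4, 3 and 3 with dBRD9-A. Each of these 4 regions had at least 1 library at 3 fragments or fewer.

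Members of both directions lay on every autosome and on X. Chromosome 2 held the most in both directions, 40 DMSO-only (12.6%) and 30 dBRD9-A-only regions (9.77%), against 8.91% of mixed and 9.57% of 6-of-6 regions. Chromosome 15 held 6 DMSO-only (1.89%) and 17 dBRD9-A-only regions (5.54%), against 3.5% of mixed regions; it was singled out after its values were seen.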

How the data were processed

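Each of the 12 libraries had 1 deposited peak list made from nucleosome-free fragments, per the labels, and peaks were called per library. BWA 0.7.12-r1039, SAMtools 1.2, bedtools 2.24.0, MACS2 2.1.1.20160309, DiffBind, DESeq2 and the build hg19 are named in the submitters' processing notes, without roles; the settings and the filter are not given in the sources used here. The deposited lists hold the fold (a ratio to local background, as the authors' peak caller wrote it), the −log10 of the p-value and of the q-value, a score that was not used, and the summit position. The lowest deposited −log10 q was 1.30.

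With a pseudocount of 1 in the fold and a Poisson tail for the p, a whole summit pileup was found for 100% of 742200 peaks (tolerance 0.001); for 92 a second whole number was less than 3 times as far off. Fold percentiles are ranks within a list. The recovery and the rule were tested on simulated data. Read totals were not analysed here, and the labels do not say whether libraries are separate cultures.

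Library measures were compared by two-sided exact permutation over the 20 arrangements of 3 against 3 libraries, with Benjamini-Hochberg adjustment over 3 measures. Log2 pileups at shared regions of same-numbered SMARCB1 libraries deviated together from their group means (correlations across 18114 regions of 0.116, 0.227 and 0.211 for replicates 1, 2 and 3), so the numbers were taken to pair them. No 2 SMARCB1 lists shared more than 1.10% of their intervals exactly. The regions named were, in each direction, the 8 of highest and 2 of lowest mean fold percentile, members within 20 kb of another, and the 2 strongest just outside each side of the rule. The pairs of opposite direction and chromosome 15 were picked after their values were seen. Members, named regions and alternatives were chosen with earlier results of these data known. Alternatives were stricter peaks, lists of equal length, pileups scaled until the lowest backgrounds matched (which leaves pileups at shared regions unequal) and rounded down, other presence and merging rules, and each library left out. Python 3.11.15, numpy 2.4.6, pandas 2.3.3, scipy 1.17.1 and matplotlib 3.10.9 were used. Sequence and motifs in the regions were not analysed here.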

Additional observations from a re-analysis of the deposited data

How the results depend on the processing

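DMSO-only and dBRD9-A-only regions numbered 122 and 160 after a −log10 q minimum of 5, 68 and 68 with lists of equal length, 114 and 190 with pileups scaled to one lowest background, and 3068 and 3192 with at least 2 of 3 against 0 of 3; without a condition on GFP libraries there were 498 dBRD9-A-only regions. Few regions were shared with the stricter settings: of the 317 and 307 members, 7 and 17 still met the rule with the stricter peaks, 0 and 0 with lists of equal length, and 8 and 18 with matched backgrounds. These settings only remove peaks, so a member stays only if all 3 of its peaks do. The small overlaps therefore restate how weak the members' peaks were. Matching backgrounds did not make depth equal: pileup at shared regions per unit of background still ran from 181 to 265 in SMARCB1 libraries. Presence by 50% cover, summit windows and merging over 100 bp kept both numbers within 1.5 times, and 189 and 199, 299 and 294, and 302 and 290 members met the rule there. As a share of 3-of-6 regions, both directions lay between 1.90% and 3.44% in these settings other than that of 2 of 3 libraries. With each library left out, numbers ran from 317 to 1469 and from 309 to 1877. The cause was not tested.

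The dBRD9-A minus DMSO differences in SMARCB1 libraries ran from −0.00867 to 0.0225 in background pileup, from −4571 to 8131 in peaks (1051 with all libraries, exact permutation p 0.9) and from −0.108 to 0.224 in log2 pileup at shared regions when 1 library was left out. All 3 changed sign without dBRD9-A replicate 1 or 3, and the latter 2 also without DMSO replicate 1. No difference could pass a threshold of 0.05, because 3 against 3 libraries allow a p of 0.1 at the smallest and fewer libraries no less. The difference of 0.224 in log2 pileup, without dBRD9-A replicate 2, had an exact permutation p of 0.1. The replicate block gave differences of 0.00440, 1051 and 0.0077, each with a p of 1. It allows 0.25 at the smallest, so pairing could not have changed a call. Another scale (log2, or linear for the log2 measure) kept all 3 directions. The stricter peaks and matched backgrounds, run for peak numbers alone, kept the direction of that measure. Within replicate numbers 1, 2 and 3 the background difference was 0.0181, −0.0233 and 0.0185.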
